A study of Mus musculus with 4 samples.

Results

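LINE editing sites are the positions inside LINE elements at which the RNA of mouse lung endothelial cells (ECs) carried an A-to-G change. A site was taken when its repeat class was LINE and when it was covered in 1 or more of the 4 libraries by at least 5 reads, 3 or more of them altered, at a rate between 0.05 and 0.95. The editing rate is the share of altered reads among all reads at the site. This gave 915 LINE sites in 613 elements, of 24200 sites in all that passed in any library. The table as deposited listed 50858 LINE sites of 1205261. The members were thus chosen by depth, altered reads and rate, and these values are given for them as a description.

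The libraries came from lung ECs of 2 inducible ADAR1 knockout (i-KO) mice, male C57/BL6 animals of 2 weeks from separate litters. From each mouse, 1 culture was treated with 4-OH-tamoxifen (TM) and 1 was left non-induced (CON), which gave a CON and a TM library for EC1 and for EC2, the names of the mice. Where 4 values follow each other below, they stand for CON and TM of EC1 and then CON and TM of EC2. Both cultures of a mouse carry the floxed ADAR1 gene and the inducible Cre, so the CON cells share these alleles and lack only the agent. The promoter that drives this inducible Cre is not given in the sources used here. Cre-negative cells treated with TM were not analysed here, so effects of TM and of the deletion cannot be told apart. The ribosomal RNA had been depleted, so that introns and transcripts outside genes were read too. The libraries held 133078922, 131796753, 143534442 and 207323870 counts over all rows of their gene count tables, and EC2 TM was the deepest.

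LINEs are long interspersed elements, retrotransposons that copy themselves through RNA with proteins that they encode. The L1 family is still active in the mouse, through some of the L1Md elements. The Lx elements are older rodent copies, and L2 and CR1 are ancient and inert. ADAR1 turns adenosine into inosine in double-stranded RNA, and inosine is read as G by reverse transcriptase. Such double strands form where a transcript holds a pair of like repeats in opposite directions, and unedited double-stranded RNA can be sensed by MDA-5, which starts the interferon response. In mouse most edited repeats are SINEs, which are short and very frequent, and LINE copies are often truncated.

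The only LINE sites that passed a test on reads lay in an inverted pair of Lx2B2 elements on chromosome Y, inside the long noncoding RNA Gm29650 of the annotation. The deposited table assigns them to the nearby gene Eif2s3y, a Y-linked translation factor gene, as distal to its 3′ end. The arm on the plus strand is the end of the element chrY:1046952-1048785, and the arm on the minus strand is the whole element chrY:1048790-1049060, only 4 bases away. Both are shown from the GENCODE vM21 transcript (mm10, plus strand, 5′ to 3′), because they carry the called sites and face each other in opposite directions. Capitals mark the adenosines at which the members lie.
Lx2B2 plus-strand arm, chrY:1048515-1048785: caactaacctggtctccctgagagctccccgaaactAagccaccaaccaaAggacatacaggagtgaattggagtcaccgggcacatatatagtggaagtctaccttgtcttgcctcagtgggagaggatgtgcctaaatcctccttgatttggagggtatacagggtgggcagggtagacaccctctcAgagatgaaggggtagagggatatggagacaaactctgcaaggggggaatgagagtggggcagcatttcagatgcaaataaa
Lx2B2 minus-strand arm, chrY:1048790-1049060: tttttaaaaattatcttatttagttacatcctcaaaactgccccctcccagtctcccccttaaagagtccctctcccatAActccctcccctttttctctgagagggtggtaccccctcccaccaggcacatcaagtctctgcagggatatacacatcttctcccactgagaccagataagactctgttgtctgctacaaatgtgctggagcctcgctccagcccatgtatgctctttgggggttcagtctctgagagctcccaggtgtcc

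Each arm is 271 bases long. When the plus-strand arm was aligned with the reverse complement of the other, 232 bases stood opposite a base and 185 of these (79.7%) matched, with 39 bases in gaps. The alignment describes the letters only, and no structure was measured.

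At the neighbouring adenosines 1048869 and 1048870 of the minus-strand arm, the editing rate was high in both CON libraries and low in both TM libraries. At 1048870 the altered reads were 7 of 12 in EC1 CON against 1 of 18 in EC1 TM, and 10 of 14 in EC2 CON against 2 of 24 in EC2 TM. As percentages these were 58.3% (95% Wilson interval 32.0 to 80.7), 5.56% (0.988 to 25.8), 71.4% (45.4 to 88.3) and 8.33% (2.32 to 25.8). At 1048869 they were 7 of 12, 3 of 17, 11 of 14 and 3 of 23. The CON and TM values did not overlap at either site. Because reads over 1 base mostly cover the next, the adjacent sites are not independent.

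By Fisher's exact test with Benjamini-Hochberg adjustment over all sites tested in the mouse, both adenosines were higher in CON in EC2 (adjusted p = 0.00745 at 1048870 and 0.00766 at 1048869). In EC1 neither passed (adjusted p = 0.154 and 0.714 by the exact test). With the reads of both mice in a paired Cochran-Mantel-Haenszel test, the adjusted p was 0.000111 and 0.00137. Site 1048870 met the limits of the choice only in the CON libraries, and 1048869 in all 4. The tests use the same reads that made these sites members, so the p-values describe the sites and are not independent of the choice.

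The other arm held 3 members. Site 1048551 had altered reads at 14 of 35 in EC1 CON against 14 of 58 in EC1 TM, and 11 of 31 in EC2 CON against 14 of 70 in EC2 TM, so that both CON rates (0.400 and 0.355) were above both TM rates (0.241 and 0.2). Its difference did not pass the test on reads in either mouse. Sites 1048565 and 1048704 were listed in only some libraries, with 4 of 31 reads altered in EC1 CON and 1 of 64 in EC2 TM at the former, and 1 of 12 in EC1 CON and 4 of 16 in EC2 CON at the latter.

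**Figure D1:**
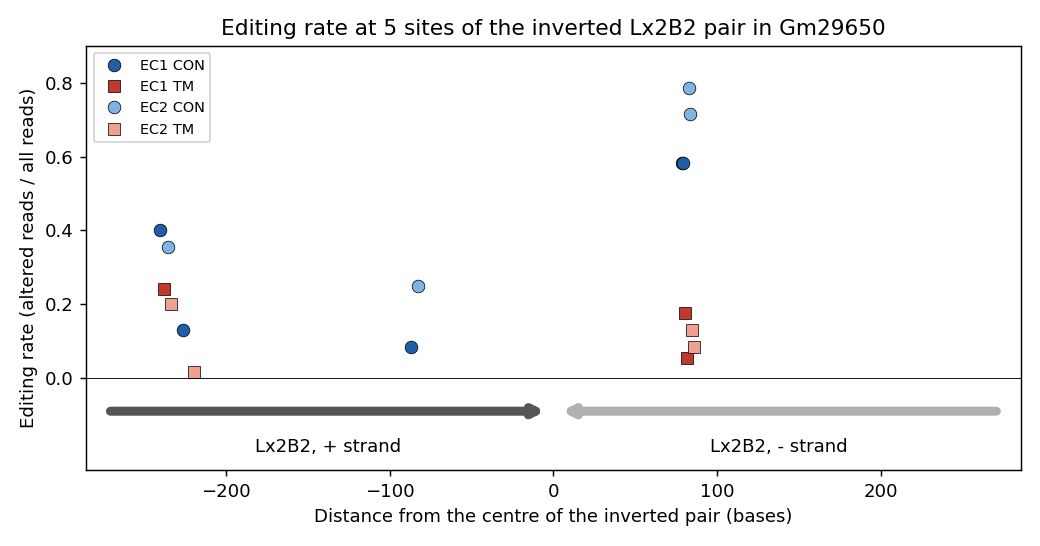
Editing rate (vertical axis, altered reads over all reads) at the 5 LINE sites of the inverted Lx2B2 pair in Gm29650, by distance in bases from the centre of the pair, with one marker for each library that listed the site. The sites at 1048869 and 1048870 have CON rates of 0.583 to 0.786 and TM rates of 0.0556 to 0.176.

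Other short sequences show the kinds of site that the test on reads did not call. They lie in exons of GENCODE vM21 transcripts (mm10, plus strand), although the deposited table labels most of them otherwise, and the members are in capitals. Ccdc59 is a coiled-coil domain gene.
Ccdc59 Lx8, first site, chr10:105844027-105844067: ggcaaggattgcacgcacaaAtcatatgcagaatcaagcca
Ccdc59 Lx8, second site, chr10:105844297-105844337: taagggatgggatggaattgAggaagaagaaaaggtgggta
L3 element in Gm48958, chr14:46895247-46895310: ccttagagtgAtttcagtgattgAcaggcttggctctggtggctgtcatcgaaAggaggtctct
Aim2 L1_Mus2, 3′ UTR, chr1:173465536-173465556: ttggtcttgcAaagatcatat
Frrs1 Lx8, chr3:116905946-116905966: aatgtggattAgcttggcctt

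The first Ccdc59 site had altered reads at 13 of 27, 5 of 15, 11 of 24 and 16 of 42, and the second at 3 of 16, 2 of 8, 9 of 27 and 14 of 44. Both CON rates were above both TM rates at the first site, and the ranges overlapped at the second. The 3 sites of the CR1-family element L3 in Gm48958 were listed in the libraries of EC2 alone, with 9 of 15, 9 of 14 and 3 of 6 reads altered in CON and 16 of 26, 15 of 24 and 12 of 20 in TM. The Aim2 site had 8 of 13, 6 of 10, 12 of 20 and 29 of 36 reads altered. The Frrs1 site, in a ferric-chelate reductase gene, had 9 of 24, 19 of 29, 16 of 27 and 28 of 47. None of these showed a difference that passed the test on reads.

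Only 38 members lay in annotated transcript exons, and 34 of them had an A on the transcript strand. ADAR enzymes are known to avoid an A that follows a G and to favour an A followed by G. G stood before the altered base at 12 of 34 LINE sites (35.3%), against 7.85% of 2026 SINE sites and 17.7% of 3167 sites outside repeats. G stood after it at 32.4%, 47.0% and 32.7% in the same order. The LINE sites share elements and transcripts (22 genes), so these shares are a description with no test. Several of the 34, such as those assigned to Samd4, were listed in 1 mouse alone. The Map3k7 site was altered at 15 of 15 and 16 of 16 reads in EC2. Inherited variants were not removed and cannot be told apart from editing here, so nothing is read from these shares about editing.

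LINE sites were mainly in L1 elements and in introns. Of the 915, 859 (93.9%) were in L1, 44 (4.81%) in L2, 11 in CR1 and 1 in RTE-X. Introns held 644 (70.4%), while 129 were distal to a 3′ end and 109 distal to a 5′ end of a gene. Downstream flanks had 15, exons 11, 3′ UTRs 5 and promoters 2. The change read A-to-G on 383 sites of plus-strand genes and T-to-C on 532 of minus-strand genes. The element lay antisense to its gene at 493 sites and in sense at 422.

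By age, as read from the repeat names, 560 members (61.2%) were in murine and rodent L1 copies such as Lx and L1_Mus. A further 150 (16.4%) were in L1Md elements, called young here by name alone, and 142 (15.5%) in older mammalian L1. L2 had 44, other families 12 and L1 names outside these classes 7. Of the LINE sites listed in the table, the members were 2.27% for the murine and rodent L1, 1.80% for the older L1, 1.54% for L2 and 1.02% for young L1Md. Reads of young copies align to many places, and the part of mapping in these shares was not tested. The 10 most frequent names were L1Md_F2 with 108 sites in 69 elements, Lx7 with 60, L1_Mus3 with 51, Lx8 with 45, Lx with 44, Lx2 with 35, L1_Mus1 with 34, Lx9 with 28, Lx8b with 27 and L1Md_T with 25.

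The libraries differed in how many LINE sites passed. They were 425 in EC1 CON against 345 in EC1 TM, and 312 in EC2 CON against 433 in EC2 TM, of 11979, 9492, 10641 and 12232 passing sites of any kind. Among repeat sites LINEs made up 6.78% (95% Wilson interval 6.19 to 7.43), 8.22% (7.43 to 9.09), 5.97% (5.36 to 6.65) and 8.22% (7.5 to 8.99), so that the share of repeat sites was higher in the TM library in each mouse. Repeat sites of all classes numbered 6267, 4197, 5225 and 5270, and in EC1 the LINE sites were thus fewer in TM and the other repeat sites fewer still. Of passing sites of any kind LINEs made up 3.55%, 3.63%, 2.93% and 3.54%, nearly level between CON and TM in EC1. Per 1000000 counts of the library, the numbers of passing LINE sites were 3.19, 2.62, 2.17 and 2.09. The deepest library, EC2 TM, thus had the most sites and the fewest for its depth. All intervals cover counting error only.

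Depth at these sites was low. The median depth at passing LINE sites was 13, 13, 12 and 12, and the median rate 0.429, 0.5, 0.467 and 0.5. Of the members, 551 passed in 1 library, 207 in 2, 78 in 3 and 79 in all 4, and 192 had a depth of at least 5 in all 4. In EC1 CON, 148 of the passing sites had exactly 3 altered reads and 35 exactly 5 reads. Just outside, 430 LINE sites had 2 altered reads, 42 had 4 reads, and 1183 had a rate over 0.95. No listed entry had 0 altered reads. An unlisted site may therefore be one without reads or one without altered reads, and its rate is 0 in the deposited table.

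A few elements held many sites each. An Lx7 element near 4930402H24Rik (chr2:130878895-130879763) had 22 members, the most of any LINE. Of the reads summed over its listed members, 12.8% were altered in EC1 CON against 8.33% in EC1 TM, and 15.2% in EC2 CON against 9.81% in EC2 TM, and 9, 2, 18 and 7 of its sites passed. In EC1 12 of its sites had the higher rate in CON and 6 in TM, and in EC2 17 and 3. Unlisted sites count as 0 there, and of the 22 sites 17, 12, 20 and 14 were listed. Both CON values were above both TM values. A listed site has at least 1 altered read, so such shares leave out libraries in which a site was read without a change. Since one read covers several sites of an element, no interval is given for such sums.

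Close by on the same chromosome, an Lx element in an exon of the noncoding gene A730017L22Rik (chr2:130872044-130873869) held all 11 exonic members. Altered reads were 12.2%, 6.49%, 13.6% and 5.26%, with 7, 0, 9 and 4 sites passing. All 11 sites were higher in CON in EC1, and 9 of 11 in EC2. Of the 11, 8 were unlisted in EC1 TM and counted as 0 there. Its site 130872892 had altered reads at 3 of 26, 1 of 25, 9 of 42 and 1 of 47 in the library order, site 130872646 at 6 of 25, 2 of 26, 7 of 31 and 4 of 40, and site 130872651 at 7 of 24, 2 of 26, 6 of 31 and 4 of 38. At each of these sites both CON rates were above both TM rates. Site 130872853 was altered at 3 of 38 in EC1 CON, was unlisted in EC1 TM, and was altered at 6 of 54 and 1 of 59 in EC2.

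In introns of protein-coding genes the pattern was mixed. An L1Md_F2 element in Phf20l1, a chromatin reader gene, had 10 members and 17.4%, 19.5%, 28.6% and 17.6% altered reads (chr15:66637508-66637755). Its sites were higher in CON at 9 of 10 in EC1 and 10 of 10 in EC2, where 6 sites were unlisted in EC1 TM and counted as 0. An Lx2B2 element of Pcdh9, a protocadherin gene, had 8 members (chr14:93783528-93783799) and 17.9%, 11%, 30% and 17.5%. There 7 of 8 sites were higher in CON in EC1 and 8 of 8 in EC2, with 8, 6, 8 and 5 of them listed and the unlisted ones counted as 0. The nearest listed LINE element on the opposite strand was 1455 bases away for the Phf20l1 element and 156 bases away for that of Pcdh9.

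An L1Md_F2 element of Nkain2, which encodes a sodium pump interacting protein, had 7 members and 13.2%, 12.3%, 28.3% and 9.59% altered reads, with a further L1Md_F2 in the opposite direction 223 bases away. An L1Md_F3 element in Cast, the calpastatin gene, also had 7, with 15%, 24.4%, 15% and 13.2%. Here EC1 TM was the highest library, so the CON and TM values overlapped. The 7 members of an L1Md_F2 distal to Catsperb, a sperm ion channel subunit gene, had 62.5%, 39.1%, 52.3% and 41.7%, with both CON values above both TM values.

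The remaining elements among the 10 with the most members passed almost only in TM libraries. An L1VL4 element of Herc6, an interferon-induced ubiquitin ligase gene (chr6:57621382-57622195), had 13 members, of which 0, 1, 0 and 13 passed in the library order. Summed over listed members the reads were 6 in EC1 CON, 49 in EC1 TM and 266 in EC2 TM, with no member listed in EC2 CON, and 16.3% and 22.9% of the TM reads were altered. An L1Md_T element on the other strand lies 7 bases away from it. An L1_Mus3 between AI607873 and Ifi204 had 7 members with 0, 4, 0 and 7 passing. An L1_Mus3 of Klra22, a killer lectin-like receptor gene, had 6 with 0, 0, 0 and 6, and had no listed opposite LINE element within 5000 bases.

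**Figure D2:**
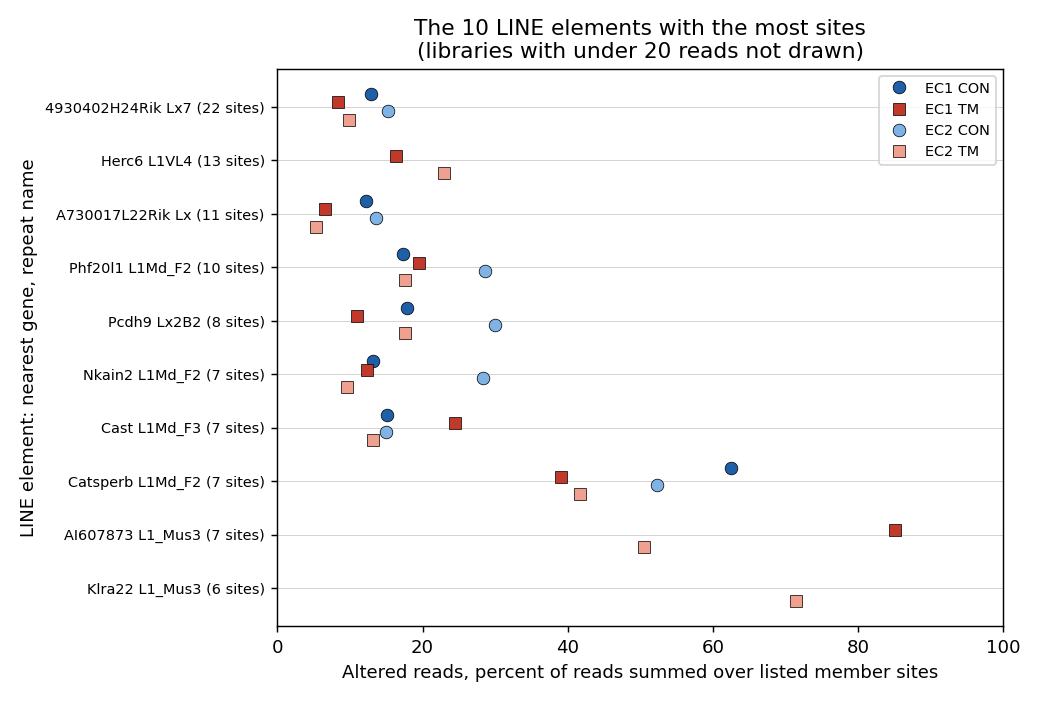
Percent of altered reads (horizontal axis), summed over the listed member sites, for the 10 LINE elements with the most members, with one marker for each library that had at least 20 reads. In the Lx7, Lx, Pcdh9, Nkain2 and Catsperb elements the CON marker is at a higher percent than the TM marker of the same mouse, while in the Cast element EC1 TM is highest at 24.4%.

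The study counted a site as CON > TM when its rate in CON was higher by at least 0.05 with the limits on depth and reads met in CON, and as CON < TM in the reverse case. By this criterion the more frequent direction among LINE sites was not the same in the 2 mice. In EC1, of 603 LINE sites that passed in either library of the mouse, 242 (40.1%) were CON > TM, beside 43.5% of all sites, and 190 (31.5%) CON < TM, beside 28.6%. In EC2, of 582 sites, 186 (32.0%) were CON > TM, beside 37.2% of all sites, and 241 (41.4%) CON < TM, beside 33.4%. CON > TM sites were thus the more frequent in EC1 and CON < TM sites in EC2. SINE sites had 55.3% CON > TM and 21.9% CON < TM in EC1, and 49.7% and 26.6% in EC2.

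In both mice 49 LINE sites (5.36% of 915) were CON > TM, beside 7.35% of all sites and 11.4% of SINE sites. In the other direction 39 (4.26%) were CON < TM in both mice, beside 3.92% of all sites and 1.93% of SINE sites. A further 44 sites went opposite ways in the 2 mice. Of the names, L1Md_F2 had 10 sites CON > TM and 5 CON < TM in both mice, Lx 5 and 0, Lx2B2 5 and 0, L1_Mus3 0 and 7, and Lx9 0 and 4. The sites in sense to their gene had 31 and 15, and the antisense sites 18 and 24. The criterion sets no limit on depth in the lower library, and of the EC1 CON > TM sites 109 (45.0%) were not listed in EC1 TM, against 35.6% for sites of all kinds. Of the EC1 CON < TM sites 77 (40.5%) were not listed in CON, against 34.1% for all kinds. Of the EC2 CON > TM sites 60 (32.3%) were not listed in TM, against 25.1%, and of the EC2 CON < TM sites 128 (53.1%) were not listed in CON, against 40.0%. The last of these shares was the largest for LINE sites and for all sites.

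**Figure D3:**
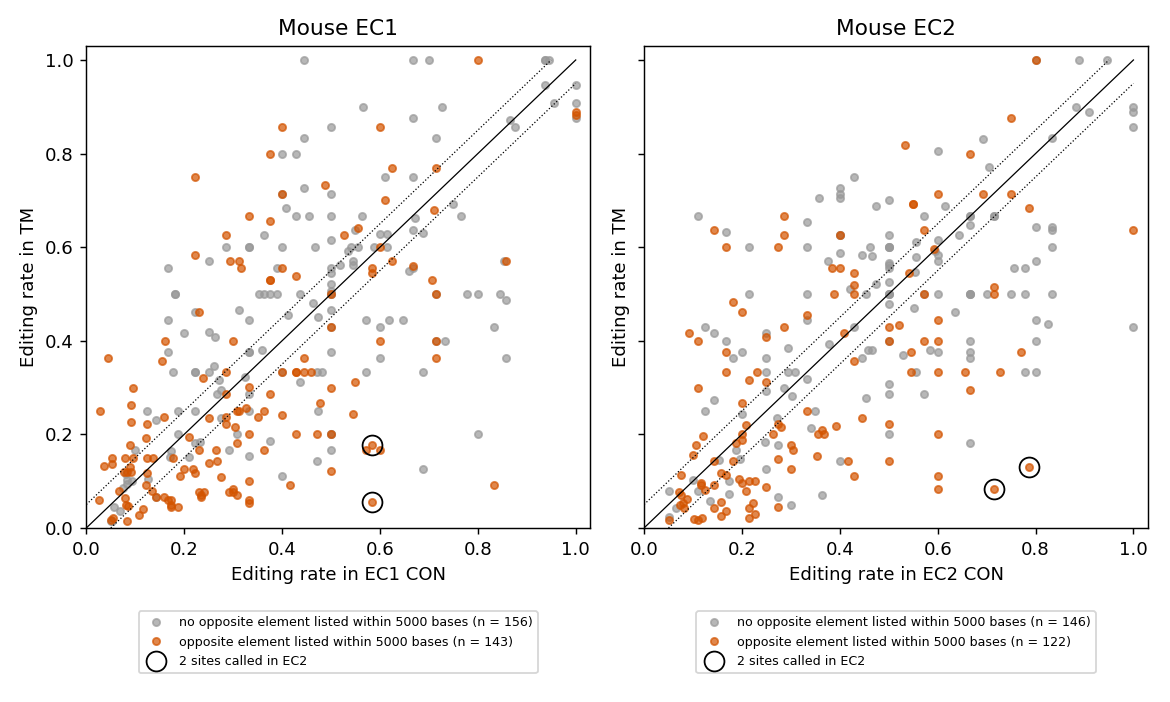
Editing rate of LINE sites in CON (horizontal axis) and TM (vertical axis) for mouse EC1 (299 sites) and mouse EC2 (268 sites), at a depth of at least 5 in both libraries, in orange where an opposite LINE element was listed within 5000 bases and in grey otherwise, with dotted lines at a difference of 0.05 and circles around the 2 sites called in EC2. The points spread on both sides of the diagonal in both mice.

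Tested on reads, few LINE sites differed. The reads are those on which the sites were chosen, so these counts are a description beside the share of all sites, chosen in the same way. With Fisher's exact test, of 299 LINE sites read at a depth of at least 5 in both libraries of EC1, 0 passed as higher in CON, beside 0.898% of all sites tested, and 0 as higher in TM, beside 0.0612%. At an unadjusted p under 0.05 there were 6 higher in CON and 3 higher in TM by the exact test, and the smallest adjusted p of a LINE site was 0.154. In EC2, 2 of 268 (0.746%) passed as higher in CON, beside 2.37% of all sites, and 0 as higher in TM, beside 0.0865%. The unadjusted exact test gave 6 and 4 there. In the paired test over both mice, 2 of 192 LINE sites (1.04%) were higher in CON, beside 4.5% of all sites and 8.58% of SINE sites, and 0 were higher in TM, beside 0.297%. The called sites are those of the Gm29650 pair. At these depths small differences at a site were not detectable, and the tests compare libraries.

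With unlisted sites counted as 0, the mean rate over the LINE sites of a mouse moved in opposite directions. It was 0.388 in EC1 CON against 0.368 in EC1 TM, and 0.375 in EC2 CON against 0.403 in EC2 TM. The CON minus TM difference was 0.0195 in EC1 and -0.0286 in EC2, with a mean of -0.00452 ± 0.0340 (SD, n = 2). An exact sign permutation over the 2 mice (two-sided) gave p = 1, and this design cannot give a p below 0.5. The sites were also chosen by these rates, so no conclusion is drawn from that test. Over the 299 and 268 sites read at a depth of at least 5 in both libraries the means were 0.400 and 0.391 in EC1 and 0.427 and 0.396 in EC2, so CON was the higher in each.

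Sites called in 1 mouse were then read in the other. A site without altered reads is unlisted, so a depth of at least 5 in both libraries of the other mouse keeps only sites with an altered read in its CON and in its TM, and the counts below cover those alone. Of the LINE sites CON > TM in EC1, 81 were read at a depth of at least 5 in both EC2 libraries, and 50 of these were higher in CON and 25 higher in TM, with mean rates of 0.388 and 0.325. Of those CON > TM in EC2, 81 could be read in EC1, and 43 were higher in CON and 34 in TM, with mean rates of 0.372 and 0.345. The same count for SINE sites was 1183 against 344 in EC2 and 1060 against 404 in EC1. LINE sites CON < TM in EC1 divided as 26 higher in CON and 27 higher in TM in EC2, and those CON < TM in EC2 as 29 and 32 in EC1. Over sites of all kinds, the CON > TM sites of EC1 were 2201 higher in CON and 1042 higher in TM when read in EC2, and those of EC2 1948 and 1095 when read in EC1. The CON < TM sites of all kinds split as 939 and 865, and as 1010 and 1007. LINE sites were near this background, or below it for the CON > TM sites of EC2. Sites of 1 element share reads, so no p is given.

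Most LINE elements had 1 site. There were 455 such elements (74.2%), against 73.6% for SINEs and 74.3% for LTRs, and the mean number of sites was 1.49, 1.52 and 1.61. Elements with at least 2 sites numbered 158, and 13 elements with 5 or more sites held 113 members, 22 of them in the Lx7 element. The counts in each direction varied with this number, which was not tested. Lone sites were CON > TM at 110 and CON < TM at 93 in EC1 and at 73 and 112 in EC2, and at 12 and 13 in both mice. Elements with 2 sites had 8 and 13 of 202 sites in both mice, and those with 3 or 4 had 12 and 10 of 145. In elements with 5 or more sites the counts were 45 and 16 in EC1, 36 and 30 in EC2, and 17 and 3 in both mice. These were of 70, 87 and 113 sites, and the counts of lone sites of 283, 263 and 455. Over sites of all kinds, 43.5% were CON > TM and 28.6% CON < TM in EC1, and 37.2% and 33.4% in EC2. In both mice together these shares were 7.35% and 3.92%.

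Among sites of the densest group with a depth of at least 5 in both libraries, altered reads were 22.0% (95% Wilson interval 19.3 to 25) in EC1 CON and 16.4% (13.9 to 19.2) in EC1 TM, and 19.1% (16.6 to 21.7) in EC2 CON and 11.2% (9.37 to 13.3) in EC2 TM. There the rate was higher in CON at 26 of 37 sites in EC1, and at 29 against 6 in EC2. In elements with 1 site the shares were 37.0% and 34.1% in EC1 and 45.4% and 42.2% in EC2. With 2 sites they were 30.3% and 29.3% in EC1 and 37.7% and 32.4% in EC2. With 3 or 4 sites they were 25.6% and 25.6% in EC1 and 25.6% and 21.9% in EC2. Beside lone sites, the densest group had the lower rates in all 4 libraries and a wider CON to TM gap in each mouse. The gap did not widen step by step through the groups between. The number of sites per element depends on the same reads, and the intervals treat reads as independent.

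**Figure D4:**
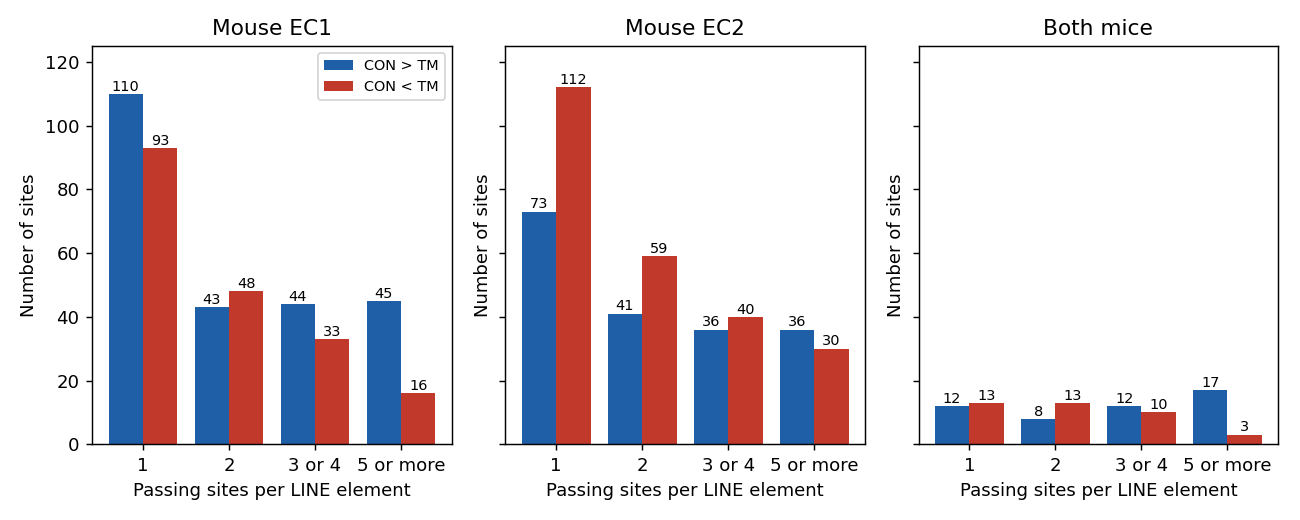
Number of LINE sites (vertical axis) that were CON > TM or CON < TM in EC1, in EC2 and in both mice, by the number of passing sites in the element (horizontal axis). In both mice together the elements with 5 or more sites have 17 sites CON > TM and 3 CON < TM, and the lone sites 12 and 13.

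A second, like LINE element in the opposite direction nearby is one source of double-stranded RNA. Here any LINE element in the opposite direction was counted, whatever its name, so likeness was not required. The nearest was an L2 for the Catsperb L1Md_F2 element and a further L1Md_F2 for that of Phf20l1. An opposite element of any name was listed within 5000 bases for 421 sites in 240 elements. None was listed for 494 sites in 373 elements, and the sites per element were 1.75 and 1.32. With an opposite element, 151 sites (52.4%) were CON > TM and 82 CON < TM in EC1, 105 (40.4%) and 97 in EC2, and 39 and 16 in both mice. Without one, the counts were 91 (28.9%) and 108, 81 (25.2%) and 144, and 10 and 23. Beside these, 43.5% of all sites were CON > TM and 28.6% CON < TM in EC1, and 37.2% and 33.4% in EC2. The shares of all sites in both mice were 7.35% and 3.92%. Over sites with a depth of at least 5, the altered reads with an opposite element were 27.4% in EC1 CON against 22.2% in EC1 TM, and 27.7% in EC2 CON against 19.5% in EC2 TM, and without one 32.1%, 32.6%, 37.1% and 34.9%. The median rates of these sites were 0.3, 0.227, 0.286 and 0.222 with an opposite element, and 0.465, 0.484, 0.5 and 0.5 without. The CON share of reads was above the TM share in both mice where an opposite element was listed, by more than in the other group. An element is listed only where it was transcribed and altered, and was not sought in the genome. The groups may therefore also differ in expression, which was not tested.

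Some of the sites CON < TM in both mice had no listed value in CON. Of these 39 sites, 14 were unlisted in both CON libraries, whereas 2 of the 49 CON > TM sites were unlisted in both TM libraries. The interferon-inducible p200 genes on chromosome 1 (Ifi202b, Ifi203, Ifi204, Mnda, AI607873, Pydc3, Pydc4 and Aim2), which encode DNA sensors and related proteins, were chosen for a closer description after their values were seen. They had 56 LINE sites in 25 elements, of which 5, 42, 3 and 50 passed. Of these, 11 were CON < TM in both mice, beside 3.92% of all sites, and 0 CON > TM, beside 7.35%. All 11 were unlisted in both CON libraries. The median depth at listed exonic sites of the table was 120, 1436, 127 and 2682 for Ifi204 and 96, 1622.5, 126 and 2160 for Mnda. Where a site is unlisted in CON, its depth there and so its rate are not known, and only 3 of the 56 had a depth of at least 5 in all 4 libraries.

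Outside those genes, Herc6 (17 sites) and Klra22 (11 sites), both also chosen after their values were seen, 831 LINE sites remained. With unlisted sites counted as 0, their mean rate was 0.396 in EC1 CON against 0.362 in EC1 TM, and 0.393 in EC2 CON against 0.400 in EC2 TM. Of them, 49 were CON > TM and 28 CON < TM in both mice, beside 7.35% and 3.92% of all sites. The genes left out had sites that passed mostly in TM. The balance of these counts thus follows in part from the removal, and nothing is read from it. The CON minus TM difference was 0.0350 in EC1 and -0.00691 in EC2.

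Some sites passed in every library. These 79 sites lay in 58 elements and 36 genes, with a median rate of 0.512, and 21 of them had every rate between 0.3 and 0.7. Of these 79, 18 were in Erdr1 on chromosome Y, and on chromosome 12 there were 10 at 100 to 110 Mb and 15 at 110 to 120 Mb. Sites of all kinds that passed in all 4 libraries numbered 3061. Of these, 4.15% lay at 90 to 100 Mb of chromosome Y, the window of Erdr1, and 3.17% and 14.7% in the 2 windows of chromosome 12. In EC1 18 of the 79 were CON > TM and 30 CON < TM, in EC2 32 and 21, and in both mice 14 and 9. Over all sites, not limited to those passing in all 4 libraries, 43.5% and 28.6% were so in EC1 and 37.2% and 33.4% in EC2. The shares of all sites in both mice were 7.35% and 3.92%. Genomic DNA was not analysed here, so inherited A-to-G variants, which would give rates near 0.5 or 1 in both cultures of a mouse, and editing cannot be told apart at sites with such rates. The mean rate was under 0.3 at 20 of the 79. The called site 1048869 of the Gm29650 pair, with its lower rates in both TM libraries, is also one of the 79. Whether any of the 79 is a variant was not tested.

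Some sites were listed in 1 mouse alone. Of 163 LINE sites that passed in both EC2 libraries, 33 (20.2%) were not listed in EC1, with median rates of 0.571 in CON and 0.556 in TM. Of 167 that passed in both EC1 libraries, 15 (8.98%) were not listed in EC2, with a median of 0.5 in both. The shares over all sites were close to these, at 18.7% and 7.76%. In EC2 16 of the 33 sites lay at 40 to 50 Mb of chromosome 14, in Exoc5, Fbxo34, Gch1, Samd4 and Socs4, a window that held 24.5% of the 1163 such sites of all kinds. A further 9 lay at 80 to 90 Mb of chromosome 8, which held 18.4% of them. Samd4 was read in all 4 libraries, with median depths of 151, 192.5, 183 and 313 at exonic positions, yet its 13 members passed at 0, 0, 10 and 12. Without genomic DNA, a variant carried by 1 mouse and editing cannot be told apart at the sites of this paragraph.

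The deepest members listed in all 4 libraries were mostly in Erdr1, a gene of the pseudoautosomal region whose reads may come from near-identical copies and are uncertain for that reason. Its site 90805002 in an L1_Mm element had altered reads at 118 of 434, 171 of 542, 62 of 228 and 135 of 574, and its site 90808512 at 167 of 353, 139 of 309, 109 of 230 and 292 of 561. The rates differed little between CON and TM at both. Beside Erdr1, site 48944866 downstream of Psme2b, a proteasome activator gene copy, was altered at 1 of 39, 1 of 242, 3 of 60 and 8 of 457 reads. Site 20396618 at Gm21119 was altered at 4 of 73, 2 of 93, 9 of 114 and 17 of 318.

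None of the 5 members in 3′ UTRs was called by the test on reads. In the Syne1 transcript of the nuclear envelope protein nesprin, altered reads were 19 of 53 in EC1 CON and 16 of 42 in EC1 TM, and the site was unlisted in EC2. In Ppil4, a cyclophilin gene, they were 14 of 32 and 20 of 40, and again none in EC2. In Map3k7, the TAK1 kinase gene, they were 5 of 8, 10 of 13, 15 of 15 and 16 of 16. In Man2b1, a lysosomal mannosidase gene, they were 2 of 5 in EC2 CON and 10 of 14 in EC2 TM only. The Aim2 site is given with its sequence above. The 3′ UTR sites of Syne1 and Ppil4 were thus found in 1 mouse, and that of Man2b1 in the other. A variant and editing cannot be told apart there either.

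The members were assigned to 360 genes by the deposited table. Those with the most sites were Pcdh9 with 29, Erdr1 with 23, 4930402H24Rik with 23, AI607873 with 22, Tc2n with 19, Herc6 with 17, Esyt2 with 16, Nkain2 with 16, Phf20l1 with 14 and Samd4 with 13. Tc2n and Esyt2 encode C2-domain proteins. Passing sites were 17, 9, 9 and 8 in Pcdh9, 10, 2, 18 and 7 in 4930402H24Rik, 14, 8, 13 and 11 in Tc2n, and 15, 16, 11 and 16 in Esyt2. They were 0, 14, 0 and 21 in AI607873 and 0, 3, 0 and 16 in Herc6, and 11, 1, 7 and 5 in Phf20l1.

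**Figure D5:**
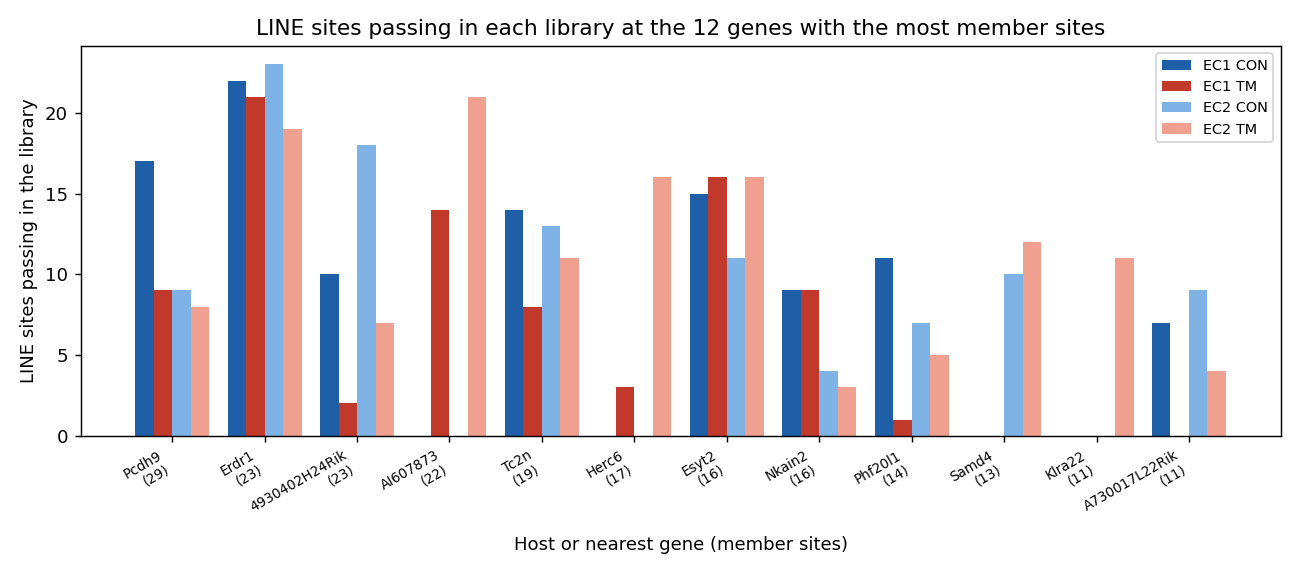
Number of LINE sites that passed in each library (vertical axis) for the 12 genes with the most members, with a bar for each of the 4 libraries and the number of members in brackets. AI607873 and Herc6 have bars in the TM libraries alone, and Samd4 in those of EC2 alone.

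Expression was then read from the gene counts, which held 1095488, 1096152, 1222301 and 1778732 counts on genes, or 0.823%, 0.832%, 0.852% and 0.858% of the totals. The kit marks the strand, and a counter left at its default expects the other orientation than kits of this kind give, so the counts may hold reads of the opposite strand, which was not tested. Low counts limit what follows too, since Ifi204, for example, had 6 to 117 counts at a median exonic depth of 120 to 2682. Adar, the gene of ADAR1, had 9 counts in EC1 CON against 47 in EC1 TM, and 16 in EC2 CON against 71 in EC2 TM, and was higher in TM by the quasi-likelihood test of edgeR, with p adjusted over all genes tested (log2 fold change 1.87 ± 0.45 SE, adjusted p = 0.00609). This count covers the whole gene and does not check the deletion. At listed sites in exons 12 to 14 of its transcript with 15 exons, the median depth was 145 over 3 sites in EC1 CON and 169 at 1 site in EC2 CON, and 65.5 over 2 sites in EC2 TM, with none listed in EC1 TM. The call was lost without the first CON library and with DESeq2.

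Genes that hold LINE sites had a larger share of rises than all genes. A gene more abundant in TM passes the limits on depth more easily there, so this share is not independent of the choice of sites. Of the 360, 215 could be tested, 17 (7.91%) rose in TM, beside 4.39% of all genes tested, and 7 (3.26%) fell, beside 3.35%. Their median log2 fold change was -0.04, against 0.0017 over all 7899 genes. With the mouse as a block in edgeR 26 of 215 (12.1%) rose, beside 7.6% of all genes tested, and 14 fell, beside 7.39%. Without the second TM library 9 of 230 rose, beside 3.05%, and 3 fell, beside 1.99%. With DESeq2 11 of 262 rose, beside 2.26%, and 3 fell, beside 1.23%. Among those that rose, Aim2 had 2, 45, 2 and 71 counts (log2 fold change 4.42, adjusted p by edgeR 4.87e-06), Ifi204 6, 37, 6 and 117 (3.21, 4.24e-05), Mnda 0, 15, 1 and 36 (4.98, 0.000641) and Ifi203 5, 22, 0 and 58 (3.52, 0.00107). Gbp5, an interferon-induced guanylate-binding protein gene, had 9, 81, 16 and 137 counts (2.74, 2.63e-05). All these were higher in both TM libraries than in either CON library.

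Among the genes that fell, Klhl4, a kelch-like family gene, had 155, 24, 128 and 33 counts (log2 fold change -2.66, adjusted p by edgeR 3.24e-06), and Reln, which encodes the matrix protein reelin, had 80, 27, 96 and 37 (-1.81, 0.00108). The genes named here as rising or falling were chosen after their values were seen. Herc6 was not called (adjusted p by edgeR 0.0556). Of the 28 genes with a site CON > TM in both mice, 17 could be tested, and 0 rose and 2 fell by edgeR. Of the 25 genes with a site CON < TM in both mice, 14 could be tested, and 5 rose and 1 fell. Over all genes tested 4.39% rose and 3.35% fell. A gene read more in TM is more likely to have a site that passes there, so the counts of these sets are not independent of how the sites were chosen, and nothing is read from them.

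Cells hold L1 in check by degrading its RNA or DNA copies, by silencing its chromatin and by binding intronic LINE sequences in pre-mRNA. Of a list of 34 counted genes with these roles or encoding editing enzymes, 26 could be tested, 7 rose in TM, beside 4.39% of all genes tested, and 0 fell by edgeR, beside 3.35%, with a median log2 fold change of 0.34. Those that restrict L1 had 5 of 8 higher, those that silence it 1 of 10, the RNA-binding proteins 0 of 6, and the editing enzymes 1 of 2, which is Adar, the gene targeted in these cells. Samhd1, which depletes nucleotides, had 2, 29, 5 and 59 counts (log2 fold change 3.21, adjusted p by edgeR 0.000439). Bst2, which encodes tetherin, had 18, 70, 16 and 123 (2.12, 0.000423), and Zc3hav1, the antiviral protein ZAP, 11, 64, 16 and 113 (2.32, 0.00026). In each of these both TM libraries were above both CON libraries. Many of these genes are also interferon-induced.

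Isg20, an exonuclease gene, had 2, 19, 2 and 47 counts (log2 fold change 3.56, adjusted p by edgeR 0.000819), and Trex1, a DNA exonuclease gene, 111, 268, 67 and 291 (1.35, 0.0065). Daxx, a histone chaperone gene and the only silencing gene called, had 28, 216, 25 and 272 (2.87, 7.22e-07). The calls of Trex1 and Isg20 were lost when 1 library was left out, the first TM or second CON library for Trex1 and the second TM library for Isg20. Mov10, an RNA helicase gene that restricts L1, was not called (281, 365, 239 and 490 counts, adjusted p by edgeR 0.508), nor was Adarb1, the gene of ADAR2 (24, 13, 27 and 21, log2 fold change -0.95, adjusted p 0.267).

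Endothelial markers were present in every library. The 10 genes of that list summed to 1622, 1540, 1275 and 1587 CPM (counts per 1000000 counts on genes), led by Cdh5, and none was at 0. The 6 leukocyte genes summed to 51.1, 58.4, 40.9 and 30.4 CPM, nearly all of it from Csf1r (49.3, 57.5, 40.9 and 29.8 CPM), with Cd3e and Lyz2 at 0 in all libraries. The 6 fibroblast and smooth muscle genes summed to 42.9, 46.5, 45.0 and 43.9 CPM, led by Acta2, and the 5 epithelial genes to 7.30, 1.82, 2.45 and 5.06 CPM, led by Sftpc. In bulk RNA, fewer cells of a type and less RNA per cell cannot be told apart.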

How the data were processed

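Reads were trimmed by the authors (Trimmomatic 0.38), aligned with STAR 2.6.1a to mm10 (GRCm38) and counted per gene with HTSeq 0.11.2, versions per the submitters' processing notes. The authors deposited raw counts, whose summary rows for reads on no gene were left out of the gene tests and library sizes. Less than 1% of the total of each library fell on genes. The kit marks strand and the counting used default settings, so the counts may hold reads of the opposite strand, which was not tested, and overlapping and antisense genes cannot be told apart. Variants were called by the authors per library with BCFtools mpileup, A-to-G on plus-strand and T-to-C on minus-strand genes, and deposited as reads per base with the editing rate as a fraction, annotated with RepeatMasker. Columns were given to libraries through the study's site table, where 1998 of 1998 sites were equal for each library.

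Sites needed 5 reads, 3 altered reads and a rate between 0.05 and 0.95 in a library. Reads were tested per mouse with Fisher's exact test and over both mice with a Cochran-Mantel-Haenszel test, adjusted over the 9800 sites of EC1, the 10402 of EC2 and the 7407 of both that passed and had at least 5 reads in each library compared. Gene counts were tested with edgeR 4.0.16 (filterByExpr, TMM, quasi-likelihood, condition only) and DESeq2 1.42.0 as an alternative, in R 4.3.3. CON and TM of a number come from the same mouse, and their deviations from the group means correlated with r = 0.163 over 7899 genes. Site work used Python 3.11.15, numpy 2.4.6, pandas 2.3.3, scipy 1.17.1, Biopython 1.88 and matplotlib 3.10.9, and each test was tested on simulated data. GENCODE vM21 gave the sequences and lncRNA names, and the annotation behind the deposited files may differ.

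The text names the 10 elements, 10 repeat names and 10 genes with the most members, the called sites, the 10 deepest sites listed in all 4 libraries (of which the leading ones are given), exonic and 3′ UTR sites, and the called genes of the L1 list. Members, lists and tests were chosen with earlier results of these data known. As alternatives, the limits were raised to a depth of 10 or 20 or to 5 altered reads, and the others were sites at the depth limit in both libraries, other weightings of the mean, DESeq2, no filter on low counts, the mouse as a block, and each library left out.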

Additional observations from a re-analysis of the deposited data

How the results depend on the processing

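The 49 LINE sites CON > TM in both mice became 32 at a depth of 10, 13 at a depth of 20, 23 with 5 altered reads and 25 at a depth of at least 5 in both libraries of the mouse, and the 39 CON < TM sites became 25, 9, 25 and 15. In EC1, 0 sites passed as higher in CON by Fisher's exact test, and 2 did in the paired test with the mouse as a block and 2 with the reads of both mice added and no block. The mean CON minus TM rate of -0.00452 turned to 0.00988 at a depth of 10, 0.00570 at a depth of 20, 0.0201 over sites at a depth of at least 5 in both libraries and 0.00471 when weighted by reads, and ranged from -0.0286 to 0.0195 with each mouse left out (0.0195 without the second). It was -0.0160 with 5 altered reads, -0.0103 per element and -0.00623 without the sites that passed in all 4 libraries, a setting chosen after seeing the data. The 17 host genes higher in TM were 11 with DESeq2, 26 with the mouse as a block and 9 to 17 with a library left out (9 without the second TM library). The 7 lower were 3 with DESeq2, 14 with the block and 3 to 5 with a library left out (3 without the second TM library, 4 without the first CON library). The L1 list had 6 genes higher with each library left out. Causes were not tested. Of 78 alternatives in all, 44 kept direction and call, 29 moved the value and 5 turned its direction. A median depth of 12 or 13 limits the test on reads.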
